A study of Homo sapiens with 4 samples.

Results

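The tricarboxylic acid cycle enzymes examined here are 9 nuclear-encoded mitochondrial proteins: CS, IDH2, IDH3A, IDH3B, OGDH, SUCLA2, SUCLG1, FH and MDH2. They were chosen by gene symbol, as all probe sets annotated to 1 of these symbols and to no other gene. This gave 17 of 54675 probe sets, for 8 of the 9 genes, out of 14337 genes tested. FH was not analysed here. Expression was measured on 4 arrays of the human colon carcinoma line HCT116, in 2 versions labelled HCT116 wt and HCT116 wt/GFP. Cells of either version were grown as spheroids, rounded multicellular aggregates, and as a monolayer on a flat surface. Spheroids and monolayer thus had 2 arrays each, 1 per version, and precision is limited by that number. How old or large the spheroids were, and how many cultures an array stands for, is not stated in the labels. The comparison asks how expression in spheroids differs from that in monolayers, and it was made within each line.

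The cycle oxidises the acetyl group of acetyl-CoA to carbon dioxide in the mitochondrial matrix. It supplies NADH and FADH2 to the respiratory chain and precursors for lipids, amino acids and haem. In tumour cells that are short of oxygen, pyruvate is commonly diverted to lactate and less of it enters the cycle, while glutamine becomes a major source of cycle intermediates. Some steps have parallel enzymes: the NAD-dependent isocitrate dehydrogenase IDH3 runs forward only, whereas the NADP-dependent IDH2 is reversible and makes NADPH.

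In spheroids, 5 of the 8 tested genes fell and 1 rose, while 2 did not pass the test. CS, the IDH3 subunits IDH3A and IDH3B, and the succinyl-CoA ligase subunits SUCLA2 and SUCLG1 fell by 1.26-fold to 1.59-fold. IDH2 rose by 1.78-fold. OGDH and MDH2 did not pass. A gene was called at an adjusted p under 0.05 in limma, and of all 14337 genes tested 18.6% were called lower, 30.7% higher and 49.2% in either direction. The median log2 change of the 8 genes was -0.34, against 0.23 over all genes tested, a distance of -0.57. The wt arrays gave -0.35 and the wt/GFP arrays -0.33, where all genes had medians of 0.21 and 0.21. On 7 of the 8 genes the spheroid arrays did not overlap the monolayer arrays, 5 with lower and 2 with higher spheroid signals, against 26.5% and 47.1% of all genes and 73.6% in either direction. The 5 genes that fell stood at percentiles 86.6 to 90.7 of level, IDH2 at 61.8, OGDH at 30.3 and MDH2 at 98.6. With a filter at the 60th percentile, 25.2% of genes were called lower and 37.4% higher, and the distance was -0.50. A baseline of genes of like brightness was not tested.

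**Figure D1:**
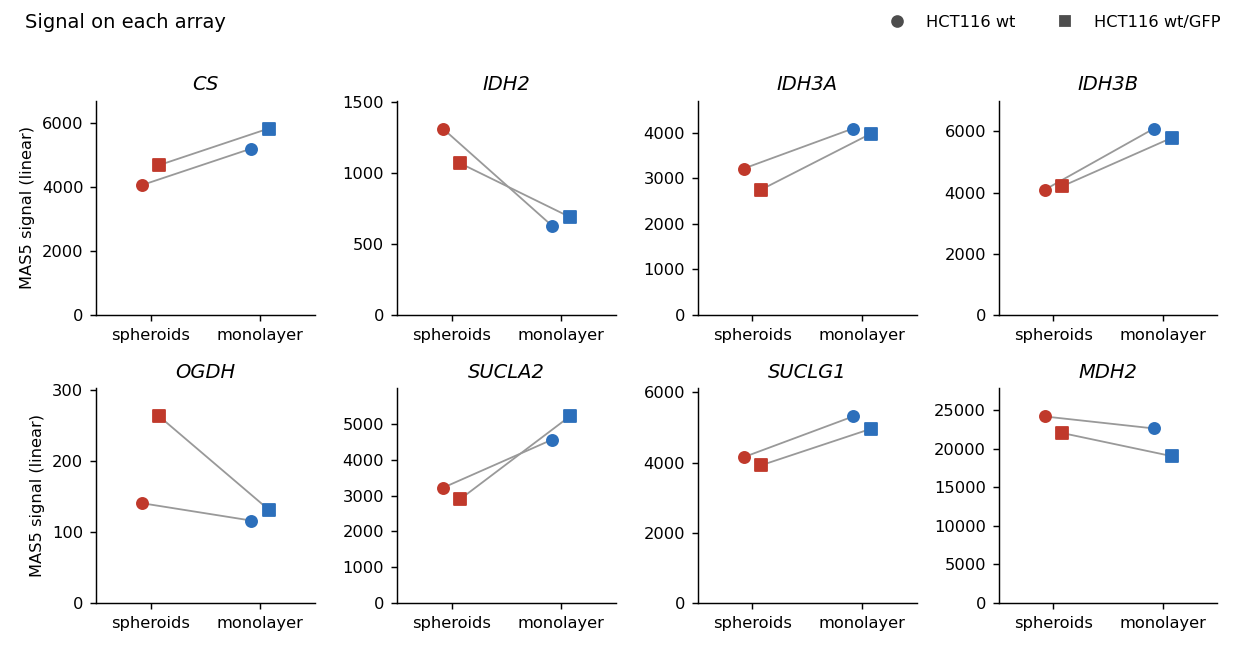
MAS5 signal on a linear axis for the 8 genes, with spheroid arrays (red) left of monolayer arrays (blue) and a line joining the arrays of 1 cell line, circles for wt and squares for wt/GFP. For CS, IDH3A, IDH3B, SUCLA2 and SUCLG1 both spheroid points lie below both monolayer points. For IDH2 and OGDH they lie above, and for MDH2 they overlap.

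The arrays differed in ways that touch these values. Their trimmed mean was 500.1 on each, but the median signal was 67.3 and 68.4 in spheroids and 48.0 and 48.8 in monolayers. The 3' over 5' ratio of the ACTB control probe sets was 1.76 and 1.73 in spheroids and 1.32 and 1.30 in monolayers, and its part in the results was not tested. The same ratio for GAPDH did not separate the cultures, at 0.87 and 0.95 in spheroids and 0.90 and 0.88 in monolayers. The share of called genes that were higher was 62.3% as deposited, 52.9% with quantile normalization, 33.6% with median centring and 29.0% with hybridisation-control scaling. The arrays fitted a carcinoma line, with 6 of 6 epithelial markers above the filter on their mean. The summed signals of these markers were 115042 and 113484 in spheroids and 104736 and 86321 in monolayers. The sum hides differences between markers. CDH1 had 4493 and 4866 in wt and wt/GFP spheroids and 916 and 889 in monolayers. KRT8 overlapped, with 16249 and 19201 in spheroids and 21590 and 17622 in monolayers. VIL1 was dim, with 90.7 and 73.6 in spheroids and 16.1 and 28.8 in monolayers, the latter below the filter signal of 30.6. Of the markers of other cell types, 3 of 6 fibroblast, 2 of 4 leukocyte and 1 of 4 endothelial genes passed the filter. Their summed signals ranged over 2434 to 4059, 368 to 401 and 247 to 278 in spheroids, against 443 to 472, 62.0 to 123 and 138 to 164 in monolayers. COL1A1 made up most of the fibroblast sum, with 2275 and 3780 in spheroids and 303 and 338 in monolayers, and LYZ most of the leukocyte sum in spheroids, with 290 and 328 in spheroids and 32.0 and 9.61 in monolayers. CD3E, the largest part of that sum in monolayers, had 43.1 and 29.5 in spheroids and 68.0 and 29.6 in monolayers. PTPRC, CD14, CDH5, VWF, KDR, LUM, PDGFRB and COL1A2 did not pass the filter. The part of these markers in the results was not tested, and in bulk RNA fewer cells of a type and less RNA per cell cannot be told apart.

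CS encodes citrate synthase, which joins acetyl-CoA and oxaloacetate at the entry to the cycle. Its signal was 4052 and 4679 in wt and wt/GFP spheroids and 5192 and 5819 in their monolayers. Every spheroid value lay below every monolayer value. The gene (GRCh38.p14, chromosome 12, 56271699 to 56300330) fell by 0.34 ± 0.11 log2 units (SE, 2 arrays per condition), or 1.26-fold, with an adjusted p of 0.0158. The log2 change was -0.36 in wt and -0.31 in wt/GFP. Wt/GFP gave the higher value in both cultures, by 0.21 log2 units in spheroids and 0.16 in monolayers. Under quantile normalization the call was lost (log2 change -0.18, adjusted p = 0.183). It was also lost without the wt spheroid array (adjusted p = 0.159), without the wt monolayer array (0.0578) and without the wt/GFP monolayer array (0.275).

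At the isocitrate dehydrogenase step the members moved in opposite directions. IDH3A encodes the catalytic alpha subunit of the NAD-dependent enzyme, and IDH3B its beta subunit. IDH3A had signals of 3209 and 2748 in wt and wt/GFP spheroids and 4088 and 3971 in monolayers. IDH3B had 4089 and 4203 in spheroids and 6091 and 5783 in monolayers. Neither gene overlapped between cultures. IDH3A (chromosome 15, 78149362 to 78171945) fell by 0.44 ± 0.12 log2 units, or 1.35-fold, with adjusted p = 0.00242. IDH3B (chromosome 20, 2658395 to 2664216) fell by 0.52 ± 0.11, or 1.43-fold, with adjusted p = 0.000407. Both were also called lower under the other 3 scalings. The IDH3A call was lost without the wt monolayer array (log2 change -0.42, adjusted p = 0.0769).

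The 3 probe sets of IDH3B changed alike. Their mean log2 changes were -0.52, -0.55 and -0.68, and each was called when every probe set was tested alone, with adjusted p between 0.000113 and 0.000934. The -0.52 and -0.55 come from probe sets whose identifiers mark probes shared between transcripts, and the -0.68 from one without that mark. For IDH3A, a second probe set fell further than the brighter one, at 696 and 811 in spheroids and 1306 and 1336 in monolayers (log2 change -0.80 ± 0.15, adjusted p = 5.71e-05). The remaining, dim IDH3A probe set had 94.6 and 117 in spheroids and 136 and 105 in monolayers, with changes of -0.47 in wt and 0.14 in wt/GFP. It did not pass (adjusted p = 0.733). Both brighter IDH3A probe sets have identifiers that mark probes shared between transcripts, unlike the dim one. With shared probe sets left out, IDH3A had a log2 change of -0.17 and was not called by limma (adjusted p = 0.720). The IDH3A call and the size of its change therefore depend on the probe set read.

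IDH2 encodes the mitochondrial NADP-dependent isocitrate dehydrogenase, which in cultured tumour cells short of oxygen has been linked to reductive carboxylation of 2-oxoglutarate. Its signal was 1312 and 1066 in wt and wt/GFP spheroids and 627 and 690 in monolayers. Both spheroid arrays lay above both monolayer arrays. IDH2 (chromosome 15, 90083045 to 90102468) rose by 0.83 ± 0.15 log2 units, or 1.78-fold, with adjusted p = 3.45e-05, by 1.05 in wt and 0.62 in wt/GFP. Against the median of all genes the rise was 0.61. The call held under quantile normalization (0.70) and median centring (0.44), and was lost with hybridisation-control scaling (0.36, adjusted p = 0.211). The other IDH2 probe set was dim, with 112 and 153 in spheroids and 111 and 93.1 in monolayers. It gave changes of 0.01 in wt and 0.64 in wt/GFP and did not pass (adjusted p = 0.463), so the rise rests on the brighter one, whose identifier marks probes shared between transcripts.

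**Figure D2:**
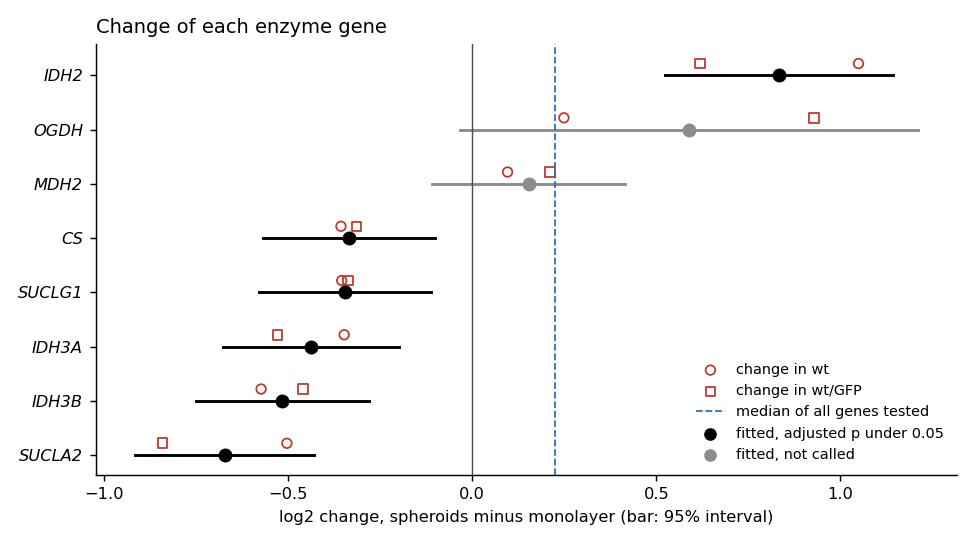
Log2 change (spheroids minus monolayer) of each gene, as the fitted value with its 95% interval (black where called, grey where not) and the changes in wt (open circle) and wt/GFP (open square). The dashed line is the median of all genes tested, 0.23. Only IDH2 has an interval that lies wholly to its right, and 5 genes have intervals wholly below 0.

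OGDH encodes the 2-oxoglutarate dehydrogenase that forms succinyl-CoA, the first component of a complex with DLST, the succinyltransferase, and DLD, the lipoamide dehydrogenase. Its signal was 141 and 263 in wt and wt/GFP spheroids and 116 and 131 in monolayers. The wt/GFP spheroid array stood above the other 3, and wt/GFP exceeded wt by 0.84 log2 units in spheroids and 0.16 in monolayers. OGDH (chromosome 7, 44606627 to 44709066) had a log2 change of 0.59 ± 0.30 with a 95% interval of -0.03 to 1.21, and did not pass (adjusted p = 0.111). Without the wt spheroid array the change was 1.01 and passed (adjusted p = 0.0312), whereas without the wt/GFP spheroid array it was 0.17 and did not pass (adjusted p = 0.731). It was 0.18, 0.20 and 0.14 under the other 3 scalings. The 2 dimmer OGDH probe sets pointed down in both lines, with 41.5 and 46.7 in spheroids against 52.3 and 71.8 in monolayers for the brighter of them, and 28.6 and 24.5 in spheroids against 44.3 and 31.7 in monolayers for the other. Neither passed (adjusted p = 0.574 and 0.690), and the mean over the 3 probe sets had a log2 change of -0.048. No direction can be given for OGDH from these arrays.

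Succinyl-CoA ligase releases CoA from succinyl-CoA and makes a nucleoside triphosphate. SUCLG1 encodes its alpha subunit, which pairs with SUCLA2 in the ATP-forming enzyme and with SUCLG2 in the GTP-forming enzyme. SUCLA2 had signals of 3219 and 2904 in wt and wt/GFP spheroids and 4568 and 5216 in monolayers. These come from its only probe set, whose identifier marks probes shared between transcripts. SUCLG1 had 4156 and 3925 in spheroids and 5317 and 4961 in monolayers. Both genes were lower on each spheroid array than on either monolayer array. SUCLA2 (chromosome 13, 47942656 to 48001273) fell by 0.67 ± 0.12 log2 units, or 1.59-fold, with adjusted p = 2.59e-05. This was the largest fall among the 8 genes, and it was called lower under all 4 scalings and without any 1 of the arrays.

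SUCLG1 (chromosome 2, 84423528 to 84459280) fell by 0.35 ± 0.11 log2 units, or 1.27-fold, with adjusted p = 0.0129, and its changes in wt and wt/GFP were -0.35 and -0.34. Under quantile normalization its call was lost (-0.20, adjusted p = 0.158). It was also lost without the wt/GFP spheroid array (adjusted p = 0.0594), the wt monolayer array (0.199) or the wt/GFP monolayer array (0.0725). A second, dim SUCLG1 probe set pointed the other way, at 57.2 and 50.2 in spheroids and 17.7 and 23.3 in monolayers. It did not pass (log2 change 0.98 ± 0.61, adjusted p = 0.205), but it turned the mean of both probe sets to 0.32 (adjusted p = 0.114).

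MDH2 encodes the mitochondrial malate dehydrogenase, which regenerates oxaloacetate and takes part in the malate-aspartate shuttle. Its signal was 24166 and 22020 in wt and wt/GFP spheroids and 22609 and 19029 in monolayers. The cultures overlapped. The log2 change of MDH2 (chromosome 7, 76048106 to 76067508) was 0.15 ± 0.13, with a 95% interval of -0.11 to 0.41, and did not pass (adjusted p = 0.339). Its sign turned with median centring (-0.24, adjusted p = 0.128) and with hybridisation-control scaling (-0.33, adjusted p = 0.0307). The second probe set had 803 and 764 in spheroids and 610 and 525 in monolayers. It rose by 0.46 ± 0.16 when tested alone (adjusted p = 0.0227). Its identifier, unlike that of the brighter one, does not mark probes shared between transcripts. With shared probe sets left out, limma therefore called MDH2 higher (adjusted p = 0.0263). MDH2 was also called higher with the mean of its probe sets (log2 change 0.31, adjusted p = 0.0421). The call for MDH2 thus depends on the probe set read.

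**Figure D3:**
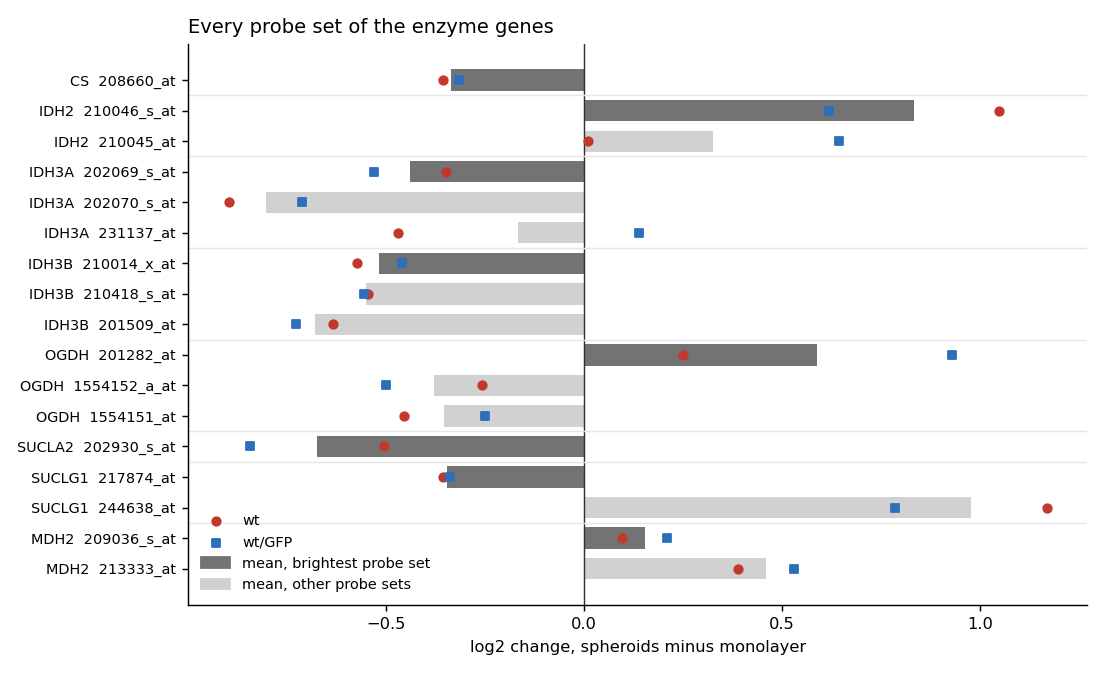
Log2 change (spheroids minus monolayer) of all 17 probe sets of the 8 genes, with wt as circles, wt/GFP as squares and their mean as a bar, dark for the brightest probe set of a gene. The probe sets of IDH3B point the same way, those of OGDH and SUCLG1 point opposite ways, and the other probe sets of IDH2 and IDH3A include 1 each whose change is near 0 or split between the lines.

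The deposited signals are scaled to a common trimmed mean, so each call was set beside 3 other scalings. IDH3A, IDH3B and SUCLA2 were called lower under all 4 scalings, 3 of 8 genes, where 17.2% of all genes were. No member was called higher under all 4, where 12.5% of all genes were (IDH2 lost its call in 1 of them). CS, SUCLG1, IDH3A, IDH3B and SUCLA2 had negative log2 changes and IDH2 and OGDH positive ones under each scaling, and only MDH2 changed sign. The median of the 8 genes was -0.19 under quantile normalization, -0.73 with median centring and -0.82 with hybridisation-control scaling, and over all genes it was 0.019, -0.17 and -0.22. The distance between the 8 genes and all genes was -0.21, -0.57 and -0.60 in these settings. All 6 calls rest on moderation of the error by brightness: without that trend limma called none of the 8 genes, although 3 had an unadjusted p under 0.05, and the adjusted p of the 6 genes ranged over 0.0568 to 0.167.

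**Figure D4:**
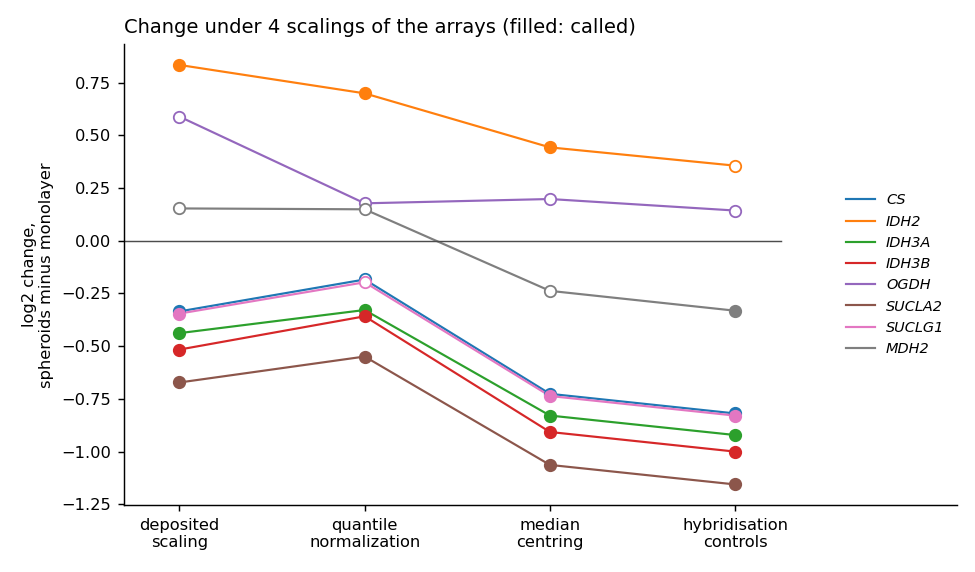
Log2 change (spheroids minus monolayer) of each gene under 4 scalings of the arrays, filled where the adjusted p was under 0.05. SUCLA2, IDH3B and IDH3A are filled and below 0 throughout, IDH2 stays above 0, and MDH2 crosses 0.

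The start regions of IDH3A, IDH3B, SUCLA2 and SUCLG1 are shown because these genes encode partner subunits of 2 enzymes and fell together. Each is the stretch of 250 bases before the start site in RefSeq (GRCh38.p14), read 5' to 3' on the gene's strand, with motif matches in capitals. They lie at chr15:78149112-78149361 on the plus strand for IDH3A, and on the minus strand at chr20:2664217-2664466 for IDH3B, chr13:48001274-48001523 for SUCLA2 and chr2:84459281-84459530 for SUCLG1.
IDH3A: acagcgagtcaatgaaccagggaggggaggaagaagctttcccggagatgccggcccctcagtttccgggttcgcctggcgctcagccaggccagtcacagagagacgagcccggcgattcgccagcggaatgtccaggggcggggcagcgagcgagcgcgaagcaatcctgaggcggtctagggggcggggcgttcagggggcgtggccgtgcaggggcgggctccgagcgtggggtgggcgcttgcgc
IDH3B: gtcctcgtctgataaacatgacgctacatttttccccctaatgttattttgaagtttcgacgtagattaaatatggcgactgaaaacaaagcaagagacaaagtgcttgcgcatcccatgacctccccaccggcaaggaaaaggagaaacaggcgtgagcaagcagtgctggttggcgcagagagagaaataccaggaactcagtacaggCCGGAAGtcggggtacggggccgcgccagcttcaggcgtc
SUCLA2: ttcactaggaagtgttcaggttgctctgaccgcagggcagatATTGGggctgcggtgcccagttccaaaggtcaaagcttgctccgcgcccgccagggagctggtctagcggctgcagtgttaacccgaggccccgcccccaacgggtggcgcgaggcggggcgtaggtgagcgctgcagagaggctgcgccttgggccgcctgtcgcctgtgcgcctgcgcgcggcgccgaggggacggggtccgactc
SUCLG1: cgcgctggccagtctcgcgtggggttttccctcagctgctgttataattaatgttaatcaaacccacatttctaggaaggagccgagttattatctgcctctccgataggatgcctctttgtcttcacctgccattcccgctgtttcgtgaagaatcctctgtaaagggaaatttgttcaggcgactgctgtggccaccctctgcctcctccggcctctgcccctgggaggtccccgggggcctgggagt
The capitals mark an ETS-type match (CCGGAAG) that starts at position -40 in IDH3B and a CCAAT match on the other strand at position -208 in SUCLA2. The regions of IDH3A and SUCLG1 held no match to the 5 motifs searched.

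The motifs were searched on both strands in the 7 members with an entry. For IDH2 the window (chr15:90100622-90100871, minus strand) lies inside the gene span given above, not before its start. The ETS-type motif CCGGAAG, bound by factors such as GABPA, was found in 2 of 7, IDH3B and MDH2, in 8.82% of all 27305 promoters and in 14.6% of the 11496 promoters of tested genes. The motif CCAAT was found in 2 of 7, CS and SUCLA2, in 33% of all promoters and in 34.6% of those of tested genes. Part of the NRF1 site, spelled GCGCATG, was in 0 of 7 members, 3.96% of all promoters and 5.98% of those of tested genes. The E-box CACGTG, bound by MYC, was in 0 of 7 members, 6.49% of all promoters and 8.53% of those of tested genes. The spelling ACGTG of the core bound by hypoxia-inducible factor, which the E-box contains, was likewise in 0 of 7 members. It was in 18.7% of all promoters and 22.5% of those of tested genes. The other spelling of that core, GCGTG, was not searched, and it occurs in the regions printed above for IDH3A, IDH3B and SUCLG1. Among the 5 genes that fell, CS, IDH3B and SUCLA2 held a match to a searched motif and IDH3A and SUCLG1 did not. The matches describe these letters in this window, not binding.

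Partner subunits of the members moved in both directions. Of 9 further enzyme genes listed, 7 were tested, of which 3 fell, 1 rose and 3 did not pass (18.6% and 30.7% of all genes), with a median log2 change of -0.14. IDH3G, the regulatory gamma subunit of IDH3, had signals of 3159 and 3500 in wt and wt/GFP spheroids and 2532 and 2708 in monolayers, opposite in direction to IDH3A and IDH3B. It rose by 0.34 ± 0.12 (adjusted p = 0.0156) with the deposited scaling and also under quantile normalization (0.42), but had values of -0.05 with median centring and -0.14 with hybridisation-control scaling. SUCLG2 fell like its partner subunits, at 3522 and 3762 in spheroids and 4636 and 5697 in monolayers (log2 change -0.50 ± 0.12, adjusted p = 0.000705). DLST and DLD fell by 0.45 ± 0.12 and 0.42 ± 0.12 (adjusted p = 0.00241 and 0.00354), while their partner OGDH was not called. These 3 were called lower under all 4 scalings. SDHA, SDHC and SDHD, subunits of succinate dehydrogenase, had values of -0.02, 0.17 and -0.14 and did not pass with the deposited scaling. SDHA and SDHD were called lower with median centring (-0.41 and -0.53) and with hybridisation-control scaling (-0.51 and -0.62), and SDHC was called higher with quantile normalization (0.32, adjusted p = 0.0397).

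Among the 4 cytosolic counterparts and paralogs, 2 rose and 2 did not pass, where 30.7% of all genes were called higher. IDH1, the cytosolic NADP-dependent isocitrate dehydrogenase, had signals of 7178 and 7839 in wt and wt/GFP spheroids and 4037 and 4044 in monolayers. It rose by 0.89 ± 0.11 log2 units, or 1.85-fold (adjusted p = 1.97e-07), and so moved in the direction of IDH2. Its call was lost only with hybridisation-control scaling, among the 4 scalings (0.41, adjusted p = 0.0646). OGDHL, a paralog of OGDH, had 335 and 508 in spheroids and 207 and 178 in monolayers, and rose by 1.05 ± 0.24 (adjusted p = 0.000472). It was also called higher under the other 3 scalings, with smaller changes of 0.73 with quantile normalization, 0.66 with median centring and 0.59 with hybridisation-control scaling (adjusted p = 0.0404 in the last). MDH1, the cytosolic malate dehydrogenase, had a value of -0.14 and ACO1, the cytosolic aconitase, one of 0.20. Both NADP-dependent isocitrate dehydrogenases were thus higher in spheroids with the deposited scaling, while the alpha and beta subunits of the NAD-dependent enzyme were lower.

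**Figure D5:**
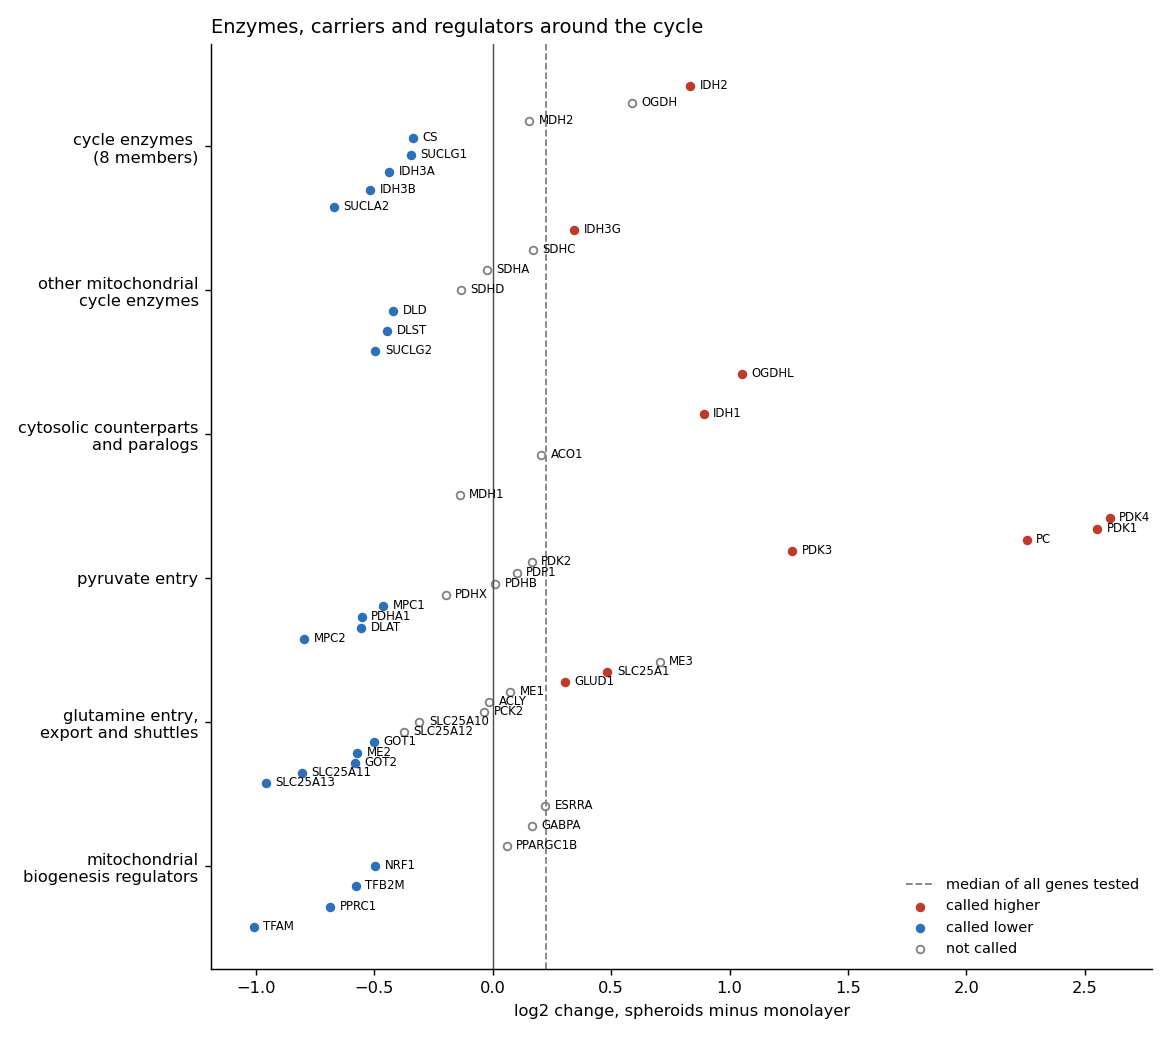
Log2 change (spheroids minus monolayer) of every tested gene in 6 lists around the cycle, red where called higher, blue where called lower and open where not called. The dashed line is the median of all genes tested. PDK4, PDK1 and PC stand farthest to the right, and TFAM farthest to the left.

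Of 13 listed genes that govern pyruvate entry, 12 were tested, of which 4 rose and 4 fell, where 30.7% of all genes were called higher and 18.6% lower. Their median log2 change was 0.06, against 0.23 over all genes. PDK1, a kinase that inactivates pyruvate dehydrogenase, had signals of 1797 and 1749 in wt and wt/GFP spheroids and 245 and 345 in monolayers. PDK1 rose by 2.55 ± 0.16, its relatives PDK4 and PDK3 by 2.60 ± 0.30 and 1.26 ± 0.19. PC, pyruvate carboxylase, which makes oxaloacetate directly, had 211 and 390 in spheroids and 63.6 and 37.5 in monolayers and rose by 2.25 ± 0.36 (adjusted p = 5.41e-06). On the other side, MPC2, a subunit of the mitochondrial pyruvate carrier, fell by 0.80 ± 0.12, and DLAT, the acetyltransferase of pyruvate dehydrogenase, fell by 0.56 ± 0.12. PDHA1 and MPC1 also fell, by 0.55 and 0.46, and were named after their values were seen. All 8 were called in the same direction under all 4 scalings. PDHB and PDHX, also of the pyruvate dehydrogenase complex, had values of 0.01 and -0.20 and did not pass with the deposited scaling. Both were called lower with median centring (-0.38 and -0.59) and with hybridisation-control scaling (-0.47 and -0.68), but not with quantile normalization.

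Of 15 listed genes of glutamine entry, citrate export and metabolite shuttles, 13 were tested, of which 5 fell and 2 rose, where 18.6% of all genes were called lower and 30.7% higher. Their median log2 change was -0.31, against 0.23 over all genes. SLC25A13, an aspartate-glutamate carrier of the malate-aspartate shuttle, had 533 and 569 in wt and wt/GFP spheroids and 1060 and 1106 in monolayers, and fell by 0.96 ± 0.15. SLC25A11, the 2-oxoglutarate carrier of the same shuttle, fell by 0.81 ± 0.12, and its aspartate transaminases GOT2 and GOT1 fell by 0.58 ± 0.12 and 0.50 ± 0.12. ME2, the mitochondrial malic enzyme, fell by 0.57 ± 0.12. These 5 genes were called lower under all 4 scalings. The dim gene ME3 had 46.6 and 75.8 in wt and wt/GFP spheroids and 74.1 and 9.26 in monolayers. Its log2 change of 0.70 ± 0.59 exceeded in size those of GOT2, ME2 and GOT1, but did not pass (adjusted p = 0.340). The 2 that rose, the citrate carrier SLC25A1 (0.48 ± 0.13) and the glutamate dehydrogenase GLUD1 (0.31 ± 0.12), were named after their values were seen, and both lost their call with median centring and with hybridisation-control scaling.

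Of 8 listed regulators of mitochondrial biogenesis, 7 were tested, of which 4 fell and 0 rose by limma, where 18.6% of all genes were called lower and 30.7% higher. TFAM, which packages mitochondrial DNA and activates its transcription, had 2672 and 2820 in wt and wt/GFP spheroids and 5680 and 5392 in monolayers. Spheroid signals were about the same in both lines and far below the monolayer ones. TFAM fell by 1.01 ± 0.12 log2 units, or 2.01-fold (adjusted p = 2.56e-08). PPRC1, a coactivator related to PGC-1, fell by 0.69 ± 0.13, TFB2M, a mitochondrial transcription factor, by 0.58 ± 0.12, and NRF1, a transcription factor of nuclear genes for respiration, by 0.50 ± 0.16. Log2 changes for these 4 were -1.01, -0.69, -0.58 and -0.50, and all were called lower under all 4 scalings. GABPA and ESRRA had values of 0.16 and 0.22 and did not pass, and PPARGC1A did not pass the filter on dim probe sets.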

How the data were processed

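Total RNA was labelled with biotin and hybridised to Affymetrix arrays, 1 for each of 4 combinations of culture and cell line. The authors deposited linear intensities, MAS5 signals according to the submitters' processing notes, without a stated version. Detection calls were not used here. Probe sets were named from the platform annotation (41091 with 1 symbol, 1801 with several, 11721 with none), and 41037 were brought up to date through RefSeq gene identifiers. The transform was log2(signal + 14.0), the pseudocount being the 25th percentile of all signals, and fold changes on this scale understate those of dim genes. Probe sets whose mean exceeded the 40th percentile (log2 value 5.48, signal 30.6) were kept, 32746 in all, and the one with the highest mean stood for a gene. All 17 probe sets of the 8 genes passed.

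limma 3.58.1 (R 4.3.3) was fitted over all 4 arrays with culture and cell line as additive terms and eBayes with a trend, with two-sided Benjamini-Hochberg adjustment over 14337 genes. There was 1 residual degree of freedom, so SE and p rest mainly on genes of like brightness, and on the disagreement between lines, which may be partly technical. The labels pair the arrays by cell line; across genes, the line difference in spheroids and in monolayers had a correlation of 0.00683. Probe sets were also tested alone. Alternatives were other scalings, pseudocounts, filters, probe set choices, moderation, no block, and leaving out each array without the block. On simulated data for spheroids against monolayer with 14337 genes, recovery was 68% for 2-fold and 95% for 4-fold changes, with 5 false calls. Only 200 genes were changed there, with independent noise from the fitted SE, whereas 49.2% of genes were called in the data. No change below 2-fold was simulated. The simulation therefore gives no recovery rate for the calls among the 8 genes, which were 1.26-fold to 1.78-fold. The genes, lists, motifs and rules (all members; in each list up to 6 genes with the largest change and the partners of members) were chosen with earlier results of these data known.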

Additional observations from a re-analysis of the deposited data

How the results depend on the processing

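Genes called higher numbered 4396 and lower 2663 over all genes. Under median centring they were 2354 and 4645, under hybridisation-control scaling 1813 and 4436, and without a trend 2653 and 1176. Testing every probe set alone gave 7195 and 4361 called probe sets, and 1702 genes were lower without probe sets shared between transcripts. Leaving out 1 array gave 3477 to 3834 higher and 1973 to 2576 lower. Of the 8 cycle genes, 5 were lower and 1 higher. Quantile normalization left 3 lower, leaving out shared probe sets 3 (SUCLA2 then had no probe set), and moderation without a trend 0 lower and 0 higher by limma. Hybridisation-control scaling left 0 higher, and averaging a gene's probe sets gave 2 (IDH2 and MDH2). Without shared probe sets the 1 higher gene was MDH2, and IDH2 lost its call by limma (adjusted p = 0.444). Leaving out 1 array gave 2 to 4 lower and 1 to 2 higher. The median log2 change of -0.34 was -0.19, -0.73 and -0.82 under the other scalings, -0.19 when averaging a gene's probe sets, -0.17 without shared probe sets and -0.36 to -0.31 without 1 array. Signs turned for OGDH (-0.048) and SUCLG1 (0.32) with the mean of probe sets, and for MDH2 after median centring (-0.24) and hybridisation-control scaling (-0.33). The cause was not tested, except that dim probe sets enter the mean. Without the cell line as a block 6630 genes were called, against 7059 with the paired fit, and no cycle gene changed its call. In the fit of single probe sets the SE was 0.63 for the dimmest OGDH probe set and 0.12 for the brightest of IDH3B. These SE rest mainly on probe sets of like brightness, and the part of background signal in them was not tested.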
